A study of Mus musculus with 16 samples.

Results

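The genes described here are 9 transcription factor genes that set or follow position along the small intestine, namely Gata4, Gata5, Gata6, Onecut2, Cdx1, Cdx2, Hnf4a, Hnf4g and Pdx1. They were taken by name, and they are 9 of the 24421 genes counted in each library. Epithelium had been shaken off opened jejunum and ileum with EDTA from wild-type C57BL6/J mice, 4 at P6 (postnatal day 6) and 4 at P36, with 2 males and 2 females at each age. Each mouse gave both regions, so that 16 bulk RNA-seq libraries fell into 4 groups of 4, and replicates of the same number within an age came from the same mouse. No mouse carried a transgene or deletion according to the labels, and the released epithelium was not sorted by cell type. In such bulk samples, fewer cells of a type and less RNA per cell cannot be told apart.

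An enterocyte's regional character is thought to be held by a small set of DNA-binding proteins. GATA4, GATA5 and GATA6 are zinc finger factors that bind the core GATA; of these, GATA4 is the one known to mark the duodenum and jejunum and to be lost toward the ileum. CDX1 and CDX2 are caudal homeodomain proteins that give the gut epithelium its intestinal identity, HNF4A and HNF4G are nuclear receptors that bind the same sites and drive enterocyte genes for lipid handling and the brush border, ONECUT2 is a cut homeodomain factor of the proximal intestine, and PDX1 is a homeodomain factor of the duodenum and pancreas.

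Counts were taken over the exons of the mm10 annotation. The GATA genes lie apart, Gata4 at chr14:63198915-63245260 (minus strand), Gata5 at chr2:180325088-180334679 (minus) and Gata6 at chr18:11052510-11085635 (plus). Onecut2 lies at chr18:64340364-64398488 (plus) and Cdx1 at chr18:61018862-61036199 (minus). Cdx2 at chr5:147300900-147307249 (minus) and Pdx1 at chr5:147270131-147275149 (plus) are neighbours in the ParaHox cluster. Hnf4a is at chr2:163547188-163572907 and Hnf4g at chr3:3508030-3659800 (both plus).

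Total counts ranged from 12159237 to 25947276 per library, and the epithelial markers Epcam (1137 to 2229.5 CPM) and Cdh1 (792 to 1064 CPM) were high in all 16 libraries. CPM are counts scaled to a common library size with edgeR's TMM factors. Values of some members or markers stood apart from their group in several ileum libraries, of which 3 are named first and were left out of some fits below. P6 ileum replicate 2 held smooth muscle and stromal transcripts, with Myh11 at 80.5 CPM against 0.0542 to 0.736 CPM in the other P6 ileum libraries. P6 ileum replicate 4 had the lowest summed level of 7 epithelial markers, 4017 CPM against 6592 to 6994 CPM, and the highest of 7 stem and crypt markers, 718 CPM against 364 to 516 CPM. P36 ileum replicate 1 had the highest summed level of 12 proximal absorptive genes, 4548 CPM against 883 to 2284 CPM. Values that changed their call or size most without these 3 libraries are also given without them. P36 ileum replicate 3 stood apart as well, but it was kept when the 3 were left out together. It had the lowest proximal sum (883 CPM) and the lowest sum of 7 absorptive enterocyte markers, 1482 CPM against 4373 to 14467 CPM. Its sum of 7 Paneth markers was the highest, 17664 CPM against 5998 to 9107 CPM. The part of these features in the results was not tested. Markers of other cell types also moved. All 7 goblet and 6 of 7 Paneth markers rose with age in both regions, with summed Paneth levels of 29.9 to 814 CPM in the P6 libraries and 4688 to 17664 CPM in those of P36. In the ileum 5 of 7 stem and crypt markers rose with age and 1 fell (summed median 472 CPM at P6, 1160 at P36). Of 7 epithelial markers 4 rose there and 0 fell (6777 and 15088 CPM). In the jejunum 3 rose and 1 fell in each of these lists. Of 6 neuron and glia markers only 3 had enough counts for a test, and all 3 fell in both regions. The rest were too low to test, so this does not describe the list as a whole. Of 7 absorptive enterocyte markers, 5 were higher in the jejunum at P6 (summed 92454 to 115269 CPM against 10954 to 21536) and 6 at P36 (20888 to 28991 CPM against 1482 to 14467). Of 5 tested T cell markers, 4 were higher in the jejunum at P36, where 6 genes summed to 7.06 to 107 CPM against 2.89 to 5.02 CPM. Among all tested genes, 24.7% rose and 26.9% fell with age in the jejunum, and 25.5% rose and 30.1% fell in the ileum. As higher in the jejunum, 11.1% passed at P6 and 8.30% at P36. The part of these shifts in the members' values was not tested.

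The promoters of 5 genes are printed because they hold, or can be searched for, the letters that these proteins bind. They are Lct (lactase) and Fabp1 (liver-type fatty acid binding protein), both proximal enterocyte genes, Sis (sucrase-isomaltase), which appears at weaning, Slc51a (the basolateral bile acid exporter subunit OSTα), whose level followed Hnf4a most closely, and the more downstream of the Hnf4a start sites. Each line gives the 250 bases before the transcript start of the RefSeq annotation on GRCm38.p6, 5′ to 3′ on the coding strand, and capitals mark motif letters on either strand. Those searched for the GATA factors were GATAA. Those for the caudal factors were TTTAT and also TTTAC. For the nuclear receptors the search used CAAAGTCC, for the related hepatocyte factor family HNF1 it used GTTAAT, and for the cut homeodomain factors it used ATTGAT.
Lct: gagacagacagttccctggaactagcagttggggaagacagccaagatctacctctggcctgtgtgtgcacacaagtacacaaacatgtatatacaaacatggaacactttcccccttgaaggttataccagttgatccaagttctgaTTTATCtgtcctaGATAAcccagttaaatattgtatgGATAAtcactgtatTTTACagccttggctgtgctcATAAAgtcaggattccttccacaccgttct
Fabp1: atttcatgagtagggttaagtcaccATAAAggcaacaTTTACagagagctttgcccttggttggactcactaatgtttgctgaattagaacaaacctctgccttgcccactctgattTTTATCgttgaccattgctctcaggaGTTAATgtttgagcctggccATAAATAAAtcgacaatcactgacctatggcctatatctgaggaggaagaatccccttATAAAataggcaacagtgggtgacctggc
Sis: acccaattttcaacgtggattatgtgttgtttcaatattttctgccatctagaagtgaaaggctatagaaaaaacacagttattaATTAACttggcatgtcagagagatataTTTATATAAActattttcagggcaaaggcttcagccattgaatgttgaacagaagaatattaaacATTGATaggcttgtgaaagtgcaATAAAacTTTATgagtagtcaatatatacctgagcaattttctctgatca
Slc51a: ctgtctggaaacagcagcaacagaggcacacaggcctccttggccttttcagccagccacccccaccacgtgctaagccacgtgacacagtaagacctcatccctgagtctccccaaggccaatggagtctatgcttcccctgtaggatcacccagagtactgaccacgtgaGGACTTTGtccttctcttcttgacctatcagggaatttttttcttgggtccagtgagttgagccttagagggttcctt
Hnf4a: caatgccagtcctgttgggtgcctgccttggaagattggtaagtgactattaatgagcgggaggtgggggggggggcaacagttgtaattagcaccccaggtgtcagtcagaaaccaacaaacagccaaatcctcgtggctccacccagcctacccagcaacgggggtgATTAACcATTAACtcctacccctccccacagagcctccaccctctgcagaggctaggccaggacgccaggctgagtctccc
The windows lie at chr1:128328319-128328568 (minus strand) for Lct, chr6:71199629-71199878 (plus) for Fabp1, chr3:72967864-72968113 (minus) for Sis, chr16:32487880-32488129 (minus) for Slc51a and chr2:163546905-163547154 (plus) for Hnf4a.

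The Lct window held GATAA 3 times, with leftmost bases 101, 89 and 65 bases before the start, and CDX letters 102, 51 and 30 bases before it. In the run TTTATC of Lct and of Fabp1 the CDX and the reversed GATA letters overlap, and in Fabp1 the run ATAAATAAA holds overlapping reversed copies of TTTAT. Sis carried TTTAT 138, 133, 50 and 43 bases before its start and no GATAA. The Slc51a window held a single reversed CAAAGTCC, 78 bases before the start, and the printed window of Hnf4a held GTTAAT reversed at 81 and 74 bases. The window of the more upstream Hnf4a start, not printed, held GATAA 51 bases and reversed ATTGAT 59 bases before that start. Of 32851 windows of 250 bases in the RefSeq table, 22.6% held GATAA, 37.3% TTTAT, 28.3% TTTAC, 1.20% CAAAGTCC, 6.43% GTTAAT and 6.72% ATTGAT. Among 10 windows of 9 of the 12 proximal absorptive genes, 5 held GATAA, as did 4 of 9 windows of the duodenal genes, 3 of 7 of the CDX-dependent genes, 2 of 10 of the HNF4-dependent genes and 1 of 7 of the ileal genes. TTTAT was in 6, 3, 5, 3 and 3 of these windows in the same order of lists. TTTAC was in 5, 1, 3, 4 and 1 of them, so that GATAA was not the only motif frequent in the proximal windows. CAAAGTCC was in 0 of those 10 windows of HNF4-dependent genes. Short letters of this kind are common, as these shares show, and a match describes the sequence, not binding. Of the 9 members, 4 (Gata5, Cdx2, Hnf4a and Pdx1) had a window in the table.

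Gata4, the GATA gene known to mark the proximal small intestine, was higher in the jejunum at both ages. Its level per length (FPKM, counts scaled for library size and for exon length) was 45.7, 47.6, 46.4 and 48.3 in P6 jejunum replicates 1 to 4 and 2.65, 5.43, 0.959 and 10.2 in the P6 ileum of the same mice. At P36 it was 54.9, 56.8, 51.4 and 51.2 FPKM in the jejunum and 9.32, 1.64, 0.217 and 0.676 FPKM in the ileum. The jejunum libraries hardly varied, the ileum libraries ranged widely, and the regions did not overlap at either age. Group means were 47.0 ± 1.18 FPKM (SD, n = 4) against 4.82 ± 4.05 at P6 and 53.6 ± 2.74 against 2.96 ± 4.28 at P36. The log2 fold change, jejunum over ileum, was 3.28 (SE 0.83, adjusted p = 0.00844 by the quasi-likelihood test of edgeR) at P6 and 4.17 (SE 0.87, adjusted p = 0.00372) at P36, with the jejunum higher in 4 of 4 mice at each age. Without P6 ileum replicate 4 the P6 value was 3.95, and without P36 ileum replicate 1 the P36 value was 6.01. The P6 difference minus that at P36 was -0.89 (SE 1.09, adjusted p = 0.660) and did not pass. It was -2.72 (adjusted p = 0.0528) without P36 ileum replicate 1 and -0.22 (adjusted p = 0.929) without P6 ileum replicate 4.

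Within a mouse, the jejunum held 17.2, 8.75, 48.4 and 4.72 times the Gata4 CPM of the ileum at P6, and 5.89, 34.7, 237 and 75.7 times at P36. P6 ileum replicate 4 and P36 ileum replicate 1 were thus the libraries closest to the jejunum, at 34.7 and 31.6 CPM against 155 to 193 CPM over all jejunum libraries. With age Gata4 did not pass in the jejunum (log2 fold change, P36 over P6, 0.19, SE 0.76, 95% interval -1.42 to 1.80, adjusted p = 0.856), although the libraries of the ages did not overlap. In a fit of the 8 jejunum libraries alone it passed as higher at P36 (0.20, adjusted p = 0.0132). In the ileum it did not pass either (-0.70, SE 0.79, adjusted p = 0.468). The ileum value rested on 1 library, since without P36 ileum replicate 1 it was -2.53 (adjusted p = 0.00513). That library held the highest Gata4 of its group, so leaving it out lowers the P36 level by itself.

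**Figure D1:**
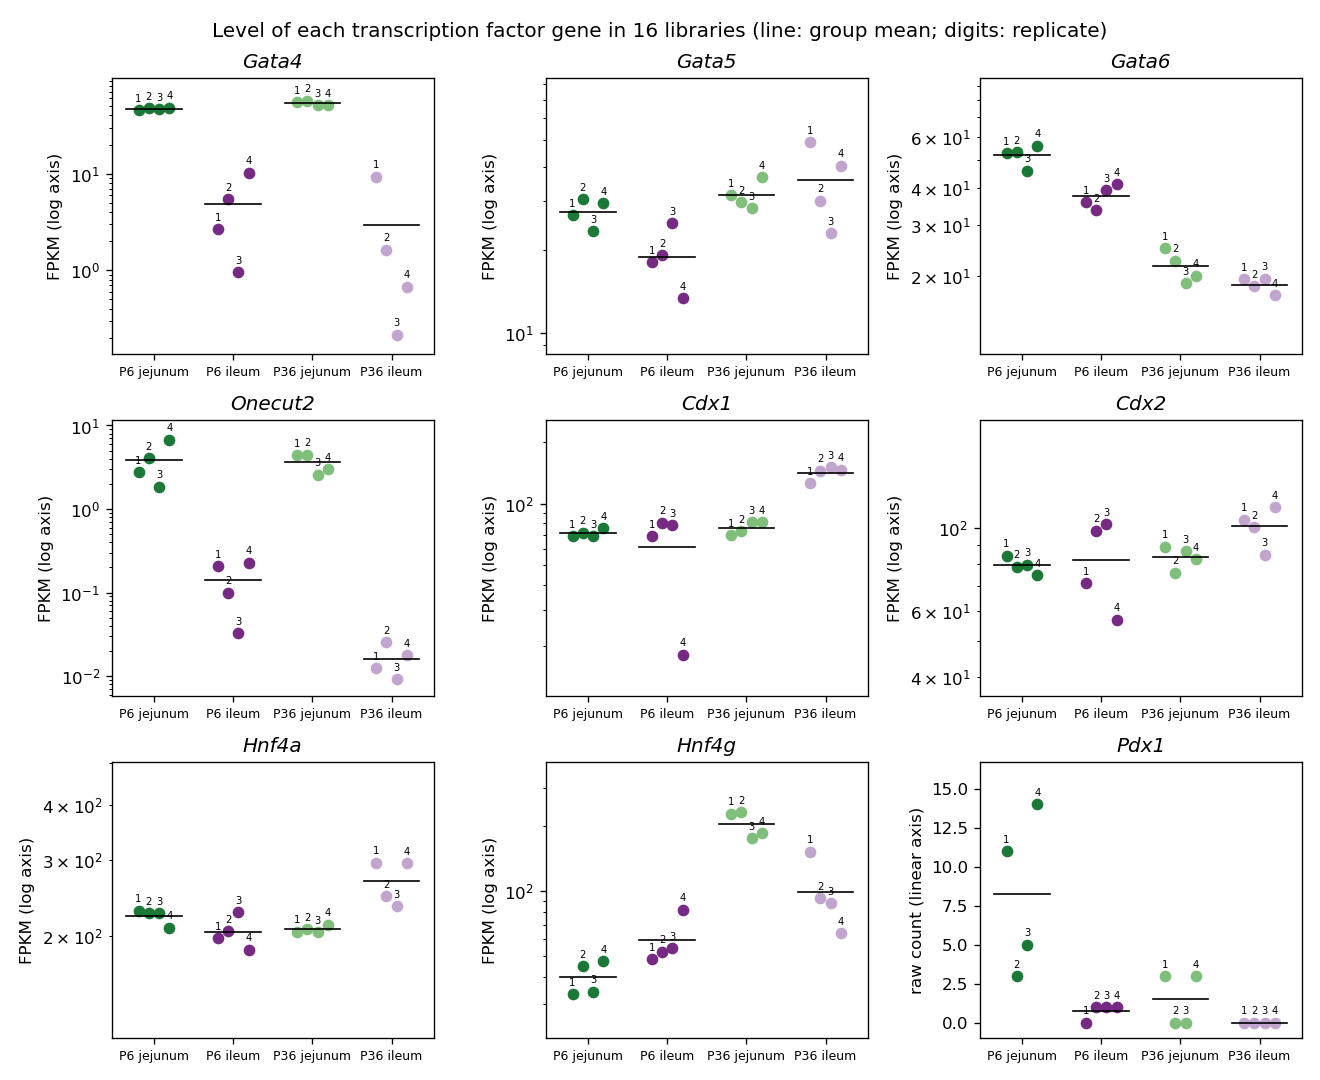
Levels of the 9 genes in the 16 libraries, by group on the x axis, as FPKM on log y axes and, for Pdx1, as raw counts on a linear y axis; points are libraries, digits their replicate number and lines group means. Gata4 and Onecut2 separate jejunum from ileum at both ages, Hnf4g is highest in the P36 jejunum (176 to 233 FPKM), and P6 ileum replicate 4 has the lowest Cdx1 (18.2 FPKM).

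Gata6, the GATA factor of crypts as well as villi, fell with age in both regions. It stood at 52.7, 53.2, 45.9 and 56.0 FPKM in the P6 jejunum and at 35.8, 33.7, 39.5 and 41.3 FPKM in the P6 ileum. At P36 the jejunum libraries held 24.9, 22.6, 18.8 and 20.0 FPKM and the ileum libraries 19.5, 18.4, 19.6 and 17.2 FPKM. All 8 P6 libraries thus lay above all 8 P36 libraries. The log2 fold change with age was -1.27 (SE 0.12, adjusted p = 2.19e-07) in the jejunum and -1.01 (SE 0.12, adjusted p = 2.81e-06) in the ileum. Between the regions Gata6 was higher in the jejunum at P6 (0.47, SE 0.12, adjusted p = 0.00749, 4 of 4 mice). That call was lost when libraries were scaled by their totals (0.18, adjusted p = 0.236). At P36 the regional value was 0.21 (SE 0.12, adjusted p = 0.266), and the regional difference did not pass a test of change with age (0.26, SE 0.16, adjusted p = 0.365).

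Gata5 rose with age in the ileum alone among the tests it entered, and its log2 fold change there was 0.92 (SE 0.22, adjusted p = 0.00207). Without the 3 ileum libraries it was 0.54 (adjusted p = 0.0387). Its ileum levels were 18.0, 19.2, 25.0 and 13.4 FPKM at P6 and 49.2, 30.1, 23.0 and 40.4 FPKM at P36, so that the ages overlapped by 1 library on each side. In the jejunum it lay between 23.3 and 30.4 FPKM at P6 and between 28.2 and 36.7 FPKM at P36 (0.20, SE 0.22, 95% interval -0.26 to 0.66, adjusted p = 0.460). The regional values were 0.54 (adjusted p = 0.0787) at P6 and -0.17 (adjusted p = 0.658) at P36, and neither passed. Without P6 ileum replicate 3 the P6 value passed (0.69, adjusted p = 0.0320).

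Taken as a family, the 3 GATA genes summed to 126 ± 8.09 FPKM (SD, n = 4) in the P6 jejunum, 61.2 ± 4.55 in the P6 ileum, 107 ± 5.66 in the P36 jejunum but only 57.3 ± 15.2 in the ileum of that age. Gata4 made up 37.3 ± 1.92% of this sum in the jejunum at P6 and 50.3 ± 2.30% at P36, but 7.82 ± 6.21% and 4.22 ± 5.28% in the ileum. Its share in the P36 ileum ranged from 0.506% to 11.9%, the highest in replicate 1. The leading gene in the ileum was Gata6 at P6 (61.3 ± 2.78%) and Gata5 at P36 (61.5 ± 6.44%). The order of the 3 genes differed in each group, and shares are a description with no test.

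GATA factors act with the zinc finger cofactors FOG1 (Zfpm1) and FOG2 (Zfpm2). Zfpm1 was higher in the jejunum at P6, at 103 ± 4.97 CPM (SD, n = 4) against 18.6 ± 11.8 (log2 fold change 2.47, SE 0.50, adjusted p = 0.00177), and at P36, at 34.0 ± 2.82 against 11.3 ± 1.36 CPM (1.59, SE 0.49, adjusted p = 0.0376). It fell with age in the jejunum (-1.60, adjusted p = 0.0112). Zfpm2 was low at P6, at 1.08 ± 0.0485 CPM in jejunum and 2.69 ± 0.565 CPM in ileum, and fell with age to at most 0.107 CPM in the P36 jejunum (adjusted p = 4.95e-05) and 0.158 CPM in the P36 ileum (adjusted p = 5.02e-06). Together the cofactors summed to 4.71 CPM in P6 ileum replicate 4, against 24.0 to 30.5 CPM in the other P6 ileum libraries. None of 6 paralogues, the blood and neural genes Gata1, Gata2 and Gata3 together with Onecut1, Onecut3 and Cdx4, had enough counts for a test, and their counts over all 16 libraries were 3, 29, 24, 1, 75 and 0.

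Onecut2 had the largest regional fold change of the 8 tested members at both ages. P6 jejunum replicates 1 to 4 held 842, 1223, 471 and 1892 counts (36.7, 54.6, 24.7 and 90.6 CPM) and the P6 ileum libraries 56, 31, 8 and 62 counts (2.76, 1.34, 0.434 and 3.04 CPM). At P36 the jejunum libraries held 1006, 1357, 765 and 755 counts (59.2, 59.9, 34.3 and 40.2 CPM), and the ileum libraries held 3, 6, 3 and 3 counts. The regions did not overlap, and in the P36 ileum the gene was at the edge of detection. Within the P6 jejunum the higher values came from replicates 2 and 4, whose mouse numbers share a prefix in the labels, and the lower from replicates 1 and 3, which share another. This split was not particular to Onecut2. Hnf4g lay at 45.0 and 47.4 FPKM in replicates 2 and 4 and at 33.3 and 34.3 FPKM in replicates 1 and 3. Summed Paneth markers split the other way (46.5 and 29.9 against 814 and 576 CPM), as did Cdx2, while Hnf4a and Pdx1 did not split. The part of this grouping was not tested. The log2 fold change of Onecut2, jejunum over ileum, was 4.76 (SE 0.51, adjusted p = 5.41e-06) at P6 and 7.82 (SE 0.64, adjusted p = 9.17e-07) at P36. With counts pooled over each group and scaled by its pooled TMM library size, the jejunum held 27.2 times the ileum at P6 (95% interval 23.2 to 32.1). At P36 the ratio was 234 (142 to 418), and these intervals cover counting error only.

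The regional gap of Onecut2 was wider at P36. The P6 log2 fold change minus that at P36 was -3.06 (SE 0.79, adjusted p = 0.0243), and this call was lost without P36 ileum replicate 3 (-2.80, adjusted p = 0.0624) and without the 3 ileum libraries named above (-2.79, adjusted p = 0.0967). In the ileum the log2 fold change of Onecut2 with age was -3.15 (SE 0.66, adjusted p = 0.000765), while the jejunum value was -0.09 (SE 0.42, 95% interval -0.98 to 0.79, adjusted p = 0.872). Per length, Onecut2 was a low gene even in the jejunum, at 3.86 ± 2.14 FPKM at P6 and 3.62 ± 0.976 at P36, over counted exons of 13391 bases.

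Pdx1, the duodenal and pancreatic factor, had too few counts for the test. At P6 its counts were 11, 3, 5 and 14 in jejunum libraries and 0, 1, 1 and 1 in ileum libraries. At P36 they were 3, 0, 0 and 3 in jejunum libraries and 0 in all 4 P36 ileum libraries. A count of 0 allows up to 3 counts, which corresponds to 0.123 to 0.237 CPM in the P36 ileum libraries. Over the P6 groups the jejunum held 33 counts and the ileum 3, a ratio of 10.6 after scaling by pooled library size (95% interval 3.33 to 54.1, counting error only). With no filter on low counts the P6 difference passed narrowly (adjusted p = 0.0480), and at P36 it did not (adjusted p = 0.155). The 10 pancreatic acinar markers summed to 108 to 302 CPM in the P6 jejunum and 1.77 to 6.76 CPM in the P6 ileum. Prss2 and Cpa1 were at 0 in every library, while Ctrb1 had 89.1 to 278 CPM in the P6 jejunum and 0.147 to 2.47 CPM in the P6 ileum. Of 9 duodenal genes, 7 were tested, and Gip (4.47, SE 0.33, adjusted p = 1.34e-07), Cybrd1 and Cck passed as higher in the P6 jejunum, as did 11.1% of all tested genes.

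Cdx1 stood highest in the P36 ileum. Its levels were 69.1, 72.0, 69.0 and 75.5 FPKM in the P6 jejunum, 69.4, 80.5, 78.2 and 18.2 FPKM in the P6 ileum, and 69.9, 73.1, 80.9 and 81.0 FPKM in the P36 jejunum. The P36 ileum libraries held 125, 145, 150.3 and 147 FPKM, above every other library. With age Cdx1 rose in the ileum (log2 fold change 1.20, SE 0.30, adjusted p = 0.00303) but did not pass in the jejunum (0.09, SE 0.30, 95% interval -0.54 to 0.72, adjusted p = 0.816). Between the regions the P36 value was -0.90 (SE 0.30, adjusted p = 0.0528), just short of the threshold, with the ileum higher in 4 of 4 mice and no overlap. The P6 ileum held the widest spread of the 4 groups, with replicate 4 at 31.8 CPM against 121 to 141 CPM in the others. Fitted on the 8 P36 libraries alone, the regional difference passed (-0.87, adjusted p = 0.000517). Without P6 ileum replicate 4 the change of the regional difference with age passed too (0.81, adjusted p = 0.000679, against 1.11 and 0.122 with it). Leaving out the value farthest from its group narrows the spread by itself, so that call is no separate support for a change.

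Cdx2, the principal intestinal identity factor, passed in 0 of 5 edgeR tests (also 0 at an unadjusted p under 0.05, and 0 in DESeq2). It ranged from 74.8 to 84.4 FPKM in the P6 jejunum and from 76.0 to 89.2 FPKM in the P36 jejunum. The ileum libraries were more spread, at 71.4, 98.4, 102 and 57.0 FPKM at P6 and 105, 100.5, 84.8 and 114 FPKM at P36. The log2 fold change between the regions was -0.05 (95% interval -0.40 to 0.30, adjusted p = 0.856) at P6 and -0.27 (-0.62 to 0.07, adjusted p = 0.297) at P36. Without P6 ileum replicate 3 the rise with age in the ileum passed (0.44, adjusted p = 0.0355, against 0.30 and 0.134 with it). The ratio of Cdx1 to Cdx2 per length was on average 0.899 in the P6 jejunum, 0.664 in the P6 ileum (0.319 in replicate 4, 0.765 to 0.972 in the others), 0.912 in the P36 jejunum, compared with 1.41 in the P36 ileum.

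Hnf4g was the member that rose most with age in the jejunum, while in the ileum Cdx1 (1.20) and Gata5 (0.92) rose more. Its regional difference pointed to the ileum at P6, where it did not pass, and to the jejunum at P36, where it passed. It stood at 33.3, 45.0, 34.3 and 47.4 FPKM in the P6 jejunum and at 48.5, 52.5, 54.4 and 82.2 FPKM in the P6 ileum. At P36 it reached 229, 233, 176 and 186 FPKM in the jejunum and 153, 92.7, 88.4 and 63.8 FPKM in the ileum. All P6 ileum libraries lay above all P6 jejunum libraries, and all P36 jejunum libraries above all P36 ileum libraries. In the jejunum the log2 fold change with age was 2.37 (SE 0.25, adjusted p = 1.08e-06) whereas for the ileum it was 0.74 (SE 0.24, adjusted p = 0.0162). The ileum rise did not pass without P36 ileum replicate 1 (0.47, adjusted p = 0.0717) or in a fit of the 8 ileum libraries alone (0.76, adjusted p = 0.0607).

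At P6 the regional value of Hnf4g was -0.57 (SE 0.24, adjusted p = 0.0967), and it passed when each mouse was entered as a block (-0.56, adjusted p = 0.0398). The ileum was the higher region in 4 of 4 mice. At P36 the jejunum was higher in 4 of 4 mice, and the log2 fold change was 1.05 (SE 0.24, adjusted p = 0.00747). The P6 regional difference minus that at P36 was -1.62 (SE 0.34, adjusted p = 0.00731), which stayed past the threshold in all 24 alternatives computed.

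Hnf4a, the partner of Hnf4g, was the highest member per length in every group mean. Its range was 210 to 229 FPKM in the P6 jejunum, 187 to 227 in the P6 ileum and 204 to 213 in the P36 jejunum, and 235 to 295 in the P36 ileum. The last group lay above every other library. With age Hnf4a rose in the ileum by 0.39 on the log2 scale (SE 0.13, adjusted p = 0.0158) and did not pass in the jejunum (-0.10, 95% interval -0.37 to 0.17, adjusted p = 0.529). The ileum rise did not pass without the 3 ileum libraries (0.29, adjusted p = 0.0620) or in a fit of the 8 ileum libraries alone (0.40, adjusted p = 0.121). The regional value at P36 was -0.37 (SE 0.13, adjusted p = 0.0607), with the ileum higher in 4 of 4 mice. In DESeq2 the same value had an adjusted p of 0.00246.

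The ratio of Hnf4g to Hnf4a per length therefore moved with region and age. It averaged 0.177 in the P6 jejunum, 0.285 in the P6 ileum, 0.986 in the P36 jejunum, compared with 0.355 in the P36 ileum. Hnf4g thus made up 15.2 ± 2.76% (SD, n = 4) of the family's FPKM in the jejunum at P6 and 49.6 ± 3.64% at P36, against 22.5 ± 5.42% and 26.6 ± 6.69% in the ileum. In the P36 jejunum the genes were not ordered, as their libraries overlapped.

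Hnf4a has a pair of promoters. In the annotation used for counting its exons began at chr2:163547188, 33 bases after the RefSeq start whose window is printed above. The other RefSeq start lies 40.3 kb before that base, so that a first exon from there was not counted while shared exons were. The counts do not separate the isoforms.

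**Figure D2:**
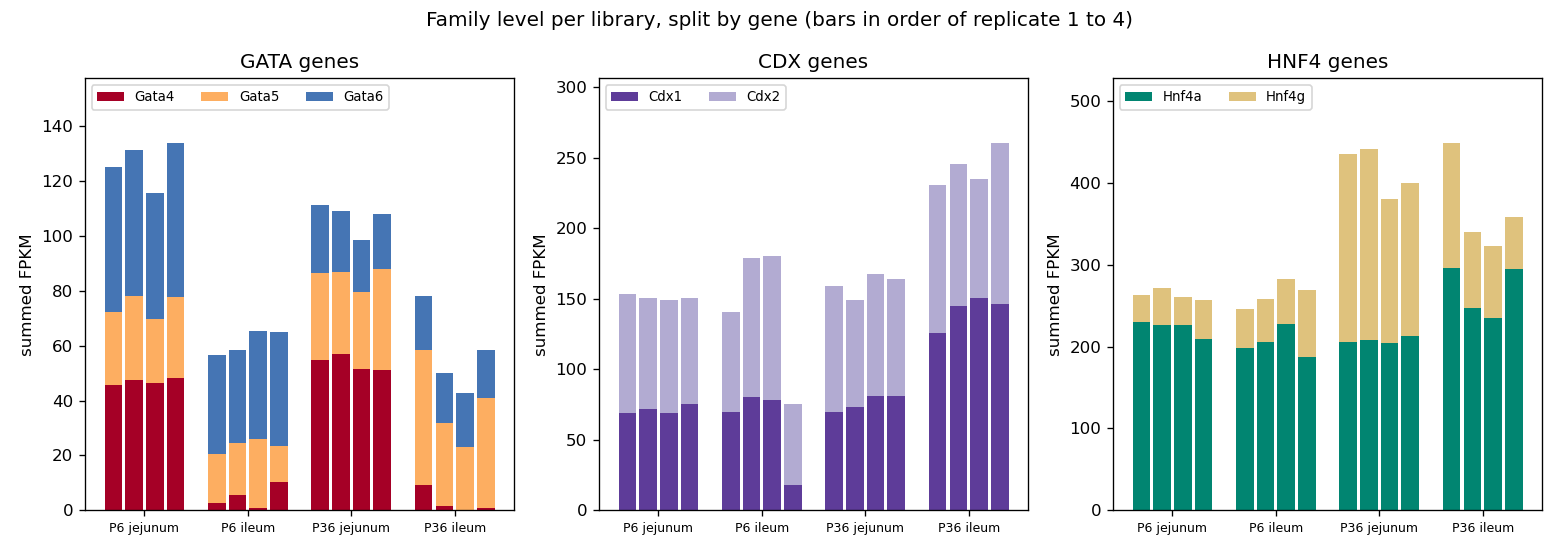
Summed FPKM (y axis, from 0) of the GATA, CDX and HNF4 genes in each library, with bars grouped by region and age on the x axis and coloured by gene. Gata4 is nearly gone from the ileum bars, Cdx1 is low in P6 ileum replicate 4, and the HNF4 sum rises from 257 to 272 FPKM in the P6 jejunum to 380 to 441 in the P36 jejunum, mostly as Hnf4g.

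Ranked by mean FPKM, the members stood in the order Hnf4a, Cdx2, Cdx1, Gata6, Gata4, Hnf4g, Gata5, Onecut2 and Pdx1 in the P6 jejunum, where Cdx2 overlapped Cdx1, Gata6 overlapped Gata4 and Gata4 overlapped Hnf4g. In the P6 ileum Cdx2, Cdx1 and Hnf4g could not be ordered among themselves, and Gata6 and Gata5 stood above Gata4. The P36 jejunum had Hnf4a and Hnf4g on top, then Cdx2 and Cdx1 (overlapping), Gata4, Gata5 and Gata6. In the P36 ileum the order was Hnf4a, Cdx1, Cdx2, Hnf4g (overlapping Cdx2), Gata5, Gata6, Gata4 and Onecut2, with Pdx1 at 0.

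Counted over the 8 tested members, 3 passed between the regions at P6 and all were higher in the jejunum (Gata4, Gata6 and Onecut2), where 11.1% of 13429 tested genes passed as higher in the jejunum and 14.8% as higher in the ileum. With an absolute log2 fold change above 2 as well, 2 members passed (Gata4 and Onecut2), against 6.50% of genes. At P36, 3 members passed as higher in the jejunum (Gata4, Onecut2 and Hnf4g) and 0 as higher in the ileum (edgeR; Cdx1 and Hnf4a had an unadjusted p under 0.05, and DESeq2 passed both), against 8.30% and 7.80% of genes. The fold minimum left 2 (Gata4 and Onecut2), against 3.60%. Without the 3 ileum libraries named above, Cdx1 and Hnf4a passed as higher in the ileum, which made 5 members.

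With age in the jejunum 2 members passed, Hnf4g as higher and Gata6 as lower at P36, against 24.7% and 26.9% of genes, and 6 of 8 members did not pass. Only Hnf4g met the fold minimum, against 16.4% of genes. In the ileum 6 members passed, with Gata5, Cdx1, Hnf4a and Hnf4g higher and Gata6 and Onecut2 lower at P36, against 25.5% and 30.1% of genes. Only Onecut2 met the fold minimum, against 16.4%. The change of the regional difference with age passed for Onecut2 and Hnf4g, against 8.69% of genes. All contrasts came from 1 fit and share libraries, so that they are not independent of each other.

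**Figure D3:**
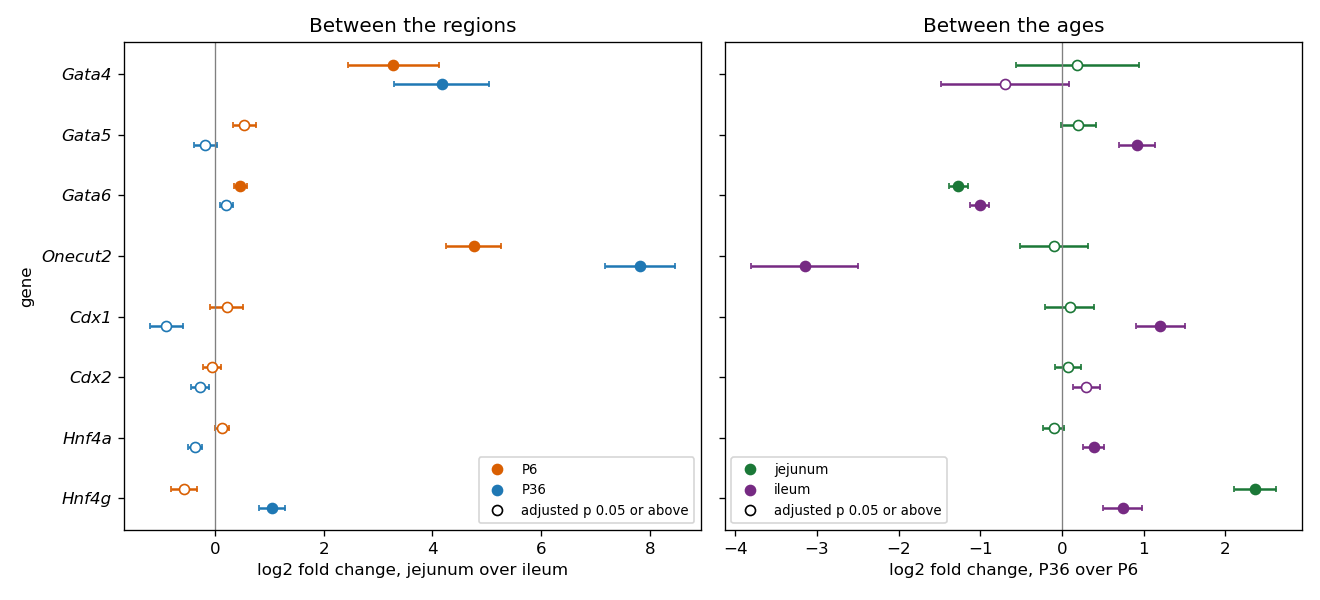
Log2 fold changes (x axis) of the 8 tested genes (y axis) between the regions at P6 and P36 (left) and between the ages in the jejunum and ileum (right); bars are 1 SE from the edgeR fit and filled points had an adjusted p under 0.05. The largest regional values are those of Onecut2 (4.76 and 7.82) and Gata4 (3.28 and 4.17), and Hnf4g crosses 0 between the ages.

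Proximal absorptive genes, a group whose members include known GATA4 targets, were higher in the jejunum. The list was drawn up as proximal and with earlier results of these data known, so its direction is a description and not a test. Of all tested genes, 11.1% passed as higher in the jejunum at P6 and 8.30% at P36. At P6, 10 of 12 passed as higher, with a median log2 fold change of 2.41 against -0.05 over all tested genes. Examples were the fatty acid translocase Cd36 (444 ± 53.3 CPM against 6.32 ± 5.71, 6.12, SE 0.61, adjusted p = 2.97e-06), Fabp1 (2552 ± 1061 against 18.5 ± 22.3 CPM, 7.10, SE 1.01, adjusted p = 9.41e-05), Apoc3 and the glucose transporter Slc2a2. At P36, 9 of 12 passed as higher (median 3.06 against -0.04), led by Slc2a2 (324 ± 32.0 against 2.37 ± 1.73 CPM, 7.12, SE 0.58, adjusted p = 9.17e-07). Without the 3 ileum libraries named above, 11 passed. P36 ileum replicate 1 is among those libraries and was named for its high sum of this same list, so that recount is no separate support. Lct, whose promoter is printed above, had 5348 ± 614 CPM in the P6 jejunum, 697 ± 385 in the P6 ileum, 1542 ± 123 in the P36 jejunum, compared with 16.1 ± 16.0 in the P36 ileum. With age, 5 genes of the list fell and 1 rose in the jejunum, against 26.9% and 24.7% of genes. In the ileum 7 fell and 1 rose, against 30.1% and 25.5%.

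**Figure D4:**
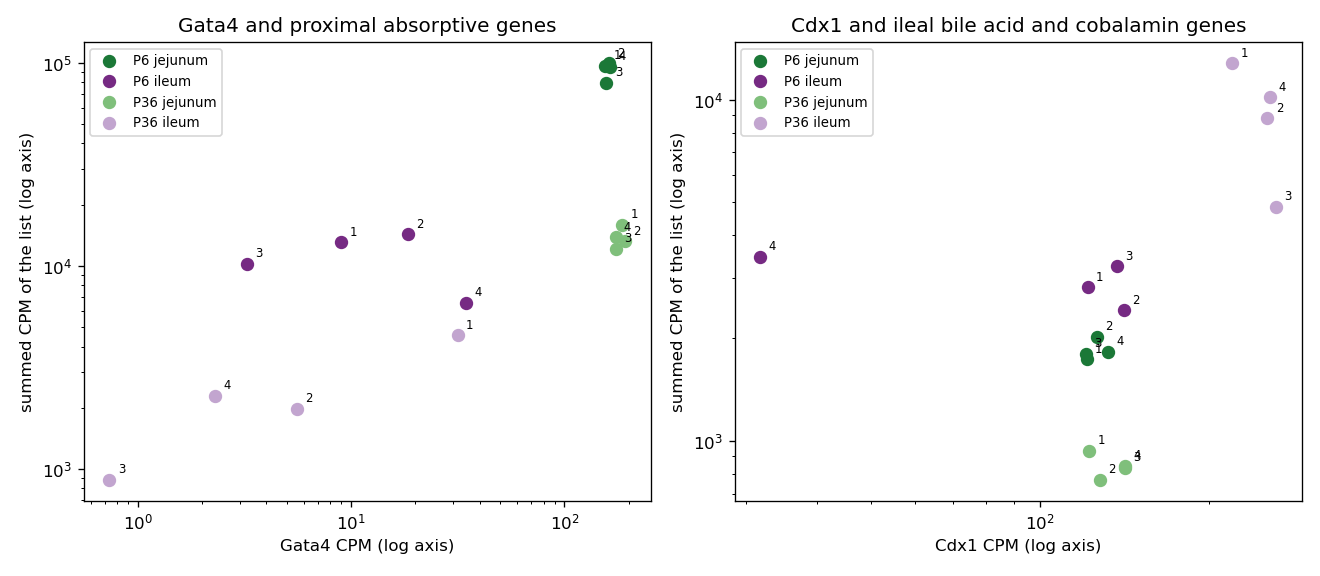
Left, Gata4 CPM (x, log axis) against the summed CPM of 12 proximal absorptive genes (y, log axis); right, Cdx1 CPM against the summed CPM of 8 ileal bile acid and cobalamin genes; each point is a library numbered by replicate. P36 ileum replicate 1 is high for its group on both axes at left, while P6 ileum replicate 4 has the highest Gata4 of its group (34.7 CPM) and the lowest proximal sum (6545 CPM).

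The 2 ileum libraries with the most Gata4 differed in the genes around it. P36 ileum replicate 1, at 31.6 CPM of Gata4, had the highest proximal sum of its group and also the highest ileal sum, 12776 CPM against 4847 to 10159.7 CPM in the others, with the highest Hnf4g and the lowest Cdx1. P6 ileum replicate 4, at 34.7 CPM, had the lowest proximal sum of its group, 6545 CPM against 10218 to 14267 CPM, the lowest Cdx1, Cdx2, Gata5 and Hnf4a and the highest Hnf4g.

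Ileal bile acid and cobalamin genes passed in both directions at P6. At P6, 3 of 8 passed as higher in the jejunum (the bile acid exporter subunits Slc51a and Slc51b and the nuclear receptor Nr0b2) and 3 as higher in the ileum (the bile acid binding protein Fabp6, the bile acid transporter Slc10a2 and the cobalamin receptor Cubn). Of all tested genes, 11.1% and 14.8% did so. At P36, 5 of 8 passed as higher in the ileum, against 7.80% of genes, and 3 did not pass. Without the 3 ileum libraries, 5 passed as higher in the ileum and 1 as higher in the jejunum. Fabp6 was at 0.409 ± 0.476 CPM in the P6 jejunum, 37.4 ± 34.0 in the P6 ileum, 5.63 ± 3.04 in the P36 jejunum, compared with 6793 ± 2281 in the P36 ileum. Slc51a, the gene of the printed HNF4 letters, was at 520.4 ± 23.0, 304 ± 109, 369 ± 20.0 and 1140.35 ± 373 CPM in the same order, and its regional difference changed with age (2.40, SE 0.37, adjusted p = 0.000708).

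Among 12 genes known to depend on HNF4 in enterocytes, 6 passed as higher in the jejunum at P6 and 5 at P36, against 11.1% and 8.30% of genes. Those with the smallest adjusted p at P6 were Apoc3 (3.32, SE 0.49, adjusted p = 0.000125), Mttp, Fabp2 and Apoa4, all of lipid handling. With age the brush border genes Myo1a (2.95, SE 0.26, adjusted p = 1.18e-07) and Vil1 rose in the jejunum, and 5 genes fell, among them Apoa4 (-4.44, SE 0.70, adjusted p = 6.68e-05), Apoc3 and the brush border gene Cdhr5. In the ileum 3 rose and 7 fell. Of all tested genes, 24.7% rose and 26.9% fell in the jejunum, and 25.5% rose and 30.1% fell in the ileum. Hnf4g rose in both regions over the same comparison, and a link was not tested. Without the 3 ileum libraries named above, 10 of the 12 passed as higher in the jejunum at P36, and 9 fell with age in each region. Among the libraries left out, P36 ileum replicate 1 had the highest sum of this list in its group (31460 CPM against 5604 to 13656 CPM). That recount is therefore no separate support.

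Of 9 genes known to depend on CDX in the intestine, 5 rose and 2 fell with age in the jejunum, against 24.7% and 26.9% of genes. Neither Cdx1 nor Cdx2 passed there, and a link between list and factors was not tested. Sis rose from 8.12 ± 1.55 to 4866 ± 585 CPM in the jejunum (9.23, SE 0.56, adjusted p = 1.74e-09) and from 19.2 ± 8.65 to 1518 ± 1009 CPM in the ileum (6.30, SE 0.50, adjusted p = 3.53e-08). Krt20 and Muc2 also rose in both regions, and the alkaline phosphatase gene Alpi fell in both. Between the regions 2 of the 9 were higher and 3 lower in the jejunum at P6, against 11.1% and 14.8% of genes. At P36, 3 were higher (5 without the 3 ileum libraries) and 2 lower, against 8.30% and 7.80%. Among the libraries left out, P36 ileum replicate 1 had the highest sum of this list in its group (17179 CPM), so that recount is no separate support.

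Of 17 other epithelial transcription factors, 9 were lower and 1 higher in the P6 jejunum, and 7 lower and 2 higher in the P36 jejunum. Among all tested genes, 14.8% were lower and 11.1% higher in the jejunum at P6, and 7.80% and 8.30% at P36. The forkhead gene Foxa1 was at 10.3 ± 0.482 CPM in the P6 jejunum against 34.7 ± 7.35 in the P6 ileum (-1.75, SE 0.17, adjusted p = 1.72e-06) and at 10.7 ± 1.69 against 36.1 ± 3.98 CPM at P36 (-1.76, SE 0.17, adjusted p = 3.76e-06). The bile acid receptor gene Nr1h4 was lower in the jejunum at P36 (54.0 ± 3.94 against 220 ± 8.96 CPM, -2.03, SE 0.13, adjusted p = 9.27e-08). With age 9 of the 17 rose and 2 fell in the jejunum, against 24.7% and 26.9% of genes. In the ileum 8 rose and 2 fell, against 25.5% and 30.1%. The vitamin D receptor gene Vdr led in both regions (3.04, SE 0.15, adjusted p = 2.31e-10 in the jejunum). Of 6 factors linked to the suckling to weaning transition, Prdm1 (Blimp1, which holds the suckling program) fell in the jejunum (-4.98, SE 0.34, adjusted p = 6.37e-09) and ileum (-5.72, SE 0.35, adjusted p = 2.26e-09), as did Arid3a, while Nr3c1 rose in both.

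Across the 16 libraries Gata4 and Onecut2 had the most similar log2 CPM of any pair of members (Pearson's r = 0.912), followed by Cdx1 and Cdx2 (0.798). Gata6 and Hnf4g ran opposite (-0.735), and Hnf4a and Hnf4g had a coefficient near 0 (-0.05). These coefficients describe 16 libraries that share 2 ages and 2 regions, and they carry no p.

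The genes most like each member over the 16 libraries were named by the same coefficient. For Gata4 they were Asah2 (r = 0.971, with 1353, 76.3, 1234 and 121 CPM in the P6 jejunum, P6 ileum, P36 jejunum and P36 ileum) and Slc25a15. For Onecut2 they were 5930403L14Rik (0.961), Fabp1 and Tmem263. Those of Gata6 were Acot3 (0.979), S100b and Tdrp, genes near 0 at P36, and those of Gata5 were Mark2 (0.913), Sys1 and Agpat2. Cdx1 was followed by Fam129b (0.980), Rrp7a and Ccar2, and Cdx2 by Osbpl7 (0.870), Gsn and Axin2. Hnf4a was closest to Slc51a (0.933), Inpp5j and Elovl1. For Hnf4g they were Ano6 (0.967, with 42.8, 104, 896 and 243 CPM in the same order of groups), Alpk1 and Glud1.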

How the data were processed

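Epithelial RNA of 16 libraries was analysed, taken from both regions of 4 P6 and 4 P36 mice. The authors made stranded Kapa mRNA libraries, used Trimmomatic 0.38 for trimming and STAR (2.5.3 per the submitters' processing notes) for alignment to mm10, and counted read pairs on exons with featureCounts 1.6.3 and the reverse strand setting. The deposited values are raw counts per gene, without normalization, with the exon length of each gene beside them.

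Genes were kept by filterByExpr on the 4 groups (13429 of 24421), and TMM scaling came before the quasi-likelihood test in edgeR 4.0.16 (R 4.3.3), in 1 fit of 4 group means without a block. The p-values were adjusted over every tested gene by the Benjamini-Hochberg method with a threshold of 0.05. An SE is the absolute log2 fold change over the square root of F. Each age had 4 mice, and p-values between regions measure the spread of these samples. FPKM were computed here from CPM and exon length. Log2 CPM for correlations used a prior count of 2. The scripts were tested on simulated data. Replicates differed beyond counting noise (chi-square per gene of 13.2 or more for each pair), so none was treated as a copy.

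The replicate numbers pair the libraries because both regions came from 1 mouse. Deviations from the group mean correlated across genes within a mouse (Pearson's r 0.157 to 0.391, mean 0.310). Between mice r ranged from -0.367 to 0.232, so that the ranges overlapped. The between-mouse mean of -0.104 is no independent comparator, since centring on the group mean pushes it below 0. A fit with the mouse as a block was an alternative (limma 3.58.1 with duplicate correlation for the ages). Others were DESeq2 1.42.0, median-of-ratios scaling, library totals, no filter, a mean CPM of at least 1, sex as a covariate, a fit restricted to the 8 libraries compared, TPM for FPKM, another pseudocount, rank correlation and each library left out. Leaving out 3 ileum libraries together was added after seeing the data. That fit dropped the P36 ileum library with the highest proximal sum (replicate 1, 4548 CPM) and kept the one with the lowest (replicate 3, 883 CPM).

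The members and lists were chosen with earlier results of these data known. Genes named are the members, up to 4 passing genes of each list by smallest adjusted p, list genes at or near 0, and the 3 genes most like each member. Some genes that this rule names are not reported here. Promoter sequences came from RefSeq (GRCm38.p6), and the genes whose promoters are printed were chosen after their values were seen.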

Additional observations from a re-analysis of the deposited data

Results flagged for a closer look

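Gata4 in P36 ileum replicate 1 stood apart from the other P36 ileum libraries, at 31.6 CPM against 5.56, 0.735 and 2.30 CPM, by Dixon's test at the 95% level. It was 1 of 36 sets of 4 libraries tested in this way, where chance alone gives about 1 in 20. The same library had the highest summed proximal absorptive genes (4548 CPM), ileal genes (12776 CPM) and Hnf4g (639 CPM) of its group.

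The regional difference of Onecut2 changed with age, with a P6 log2 fold change minus that at P36 of -3.06 (SE 0.79, edgeR adjusted p = 0.0243). It was -2.79 (adjusted p = 0.0967) without the 3 ileum libraries that were left out together, and the 4 P36 ileum libraries behind it held 3 to 6 counts each.

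The regional difference of Hnf4g also changed with age, by -1.62 (SE 0.34, adjusted p = 0.00731), with the ileum higher in 4 of 4 mice at P6 and the jejunum in 4 of 4 at P36.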

How the results depend on the processing

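Gata4 and Onecut2 kept their regional call at both ages in every edgeR alternative and with the mouse as a block; DESeq2 gave Gata4 no adjusted p, which left 1 member past the fold minimum at P6 and 1 at P36. With library totals, which shifted the median of all genes by -0.29 between the P6 regions and -0.14 between the P36 regions, 5 members passed between the P36 regions, and the values of Cdx1 (-0.074) and Hnf4a (-0.16) between the P6 regions changed sign. In fits of only 8 libraries 3 members passed with age in the jejunum and 3 in the ileum, where 0 met the fold minimum because Onecut2 had too few counts to be tested. With the replicate block, 4 members in place of 3 passed between the P6 regions (Hnf4g, -0.56, was added), no other call changed, and the uncalled Onecut2 change with age in the jejunum turned to 0.026. Leaving out 1 library at a time, the members that passed in the ileum with age and the fold minimum numbered 1 to 2, and those passing for a changed regional difference 1 to 3. Uncalled values that changed sign on leaving out a library were Onecut2 with age in the jejunum (-0.33 to 0.32), Cdx2 (-0.19 to 0.059) and Cdx1 (-0.086 to 0.37) between the P6 regions, and Gata5 between the P36 regions (-0.34 to 0.020). Without the 3 ileum libraries 5 members passed between the P36 regions, and the uncalled Cdx1 at P6 (-0.074) and Gata5 at P36 (0.025) changed sign. The causes were not tested. Depth limits Pdx1 throughout and Onecut2 in the P36 ileum.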
